A study of Mus musculus with 25 samples.

Results

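The 8 genes Nras, Hras, Braf, Cdkn2a, Cdkn2b, Cdk4, Ret and Trp53 are drivers or suppressors of melanoma, and most of them are the genes, or close relatives of the genes, that were altered in the animals from which the cell lines of this study came. They were taken by symbol from the versioned Ensembl identifiers of the count files, where 8 of 8 symbols were found among 55385 genes. Of these, 7 passed the filter on low counts and were tested with 15247 genes in all, while Ret did not pass. RNA-seq had been performed on 25 libraries of cultured cells at a confluency of 50%, with 5 biological replicates for each of 5 murine melanoma lines. The study set WT31, B16F10 luc2 and RET, which colonised the liver of mice with high or intermediate efficiency (HIM-melanoma), against D4M and HCmel12 with low efficiency (LM-melanoma).

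Each line carries its own alterations, and each genotype is represented by 1 line, so that genotype and line cannot be told apart. WT31 came from mice with an Nras transgene carrying Q61K under the tyrosinase promoter (Tyr::Nras Q61K/°) on an INK4a-/- background, and the paper speaks of a human NRAS mutation in this line. RET came from MT/RET mice, in which human RET is driven by the mouse metallothionein-I promoter. HCmel12 came from a primary melanoma of HGF-CDK4(R24C) mice, which overexpress hepatocyte growth factor and carry Cdk4 R24C. D4M came from mice with Tyr::CreER and BrafCA, in which a Cre recombinase under the tyrosinase promoter activates Braf. B16F10 luc2 is a purchased luciferase line, and B16F10 carries many mutations, among them in Trp53, whereas Nras, Braf and c-Kit are listed as unmutated. None of the cells were treated. WT31, RET and B16F10 luc2 shared a medium, whereas HCmel12 and D4M each had their own, so that medium and line cannot be told apart in comparisons with either of them.

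The genes fall into 3 connected circuits. Nras and Hras encode small GTPases that pass growth signals from receptor tyrosine kinases such as RET to BRAF, the kinase at the head of the MEK and ERK cascade, and substitutions at codon 61 of NRAS or in the kinase domain of BRAF lock this cascade in its active state. Cdk4 encodes the kinase that, bound to a D-type cyclin, inactivates the retinoblastoma protein and opens the cell cycle, and the products p16INK4a of Cdkn2a and p15INK4b of Cdkn2b block it; the R24C substitution makes CDK4 insensitive to this block. Cdkn2a also encodes ARF from an alternative first exon, which restrains MDM2 and thereby stabilises p53, the product of Trp53.

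Libraries held between 24199083 and 25843286 estimated counts, and a count of 3, taken as the floor of detection, was worth between 0.111 and 0.138 CPM (counts scaled to the library total, here with TMM factors). Floors, and the intervals of ratios given for lines with few counts, cover counting error only, while the intervals of log2 differences rest on the spread between libraries. Of 7 melanocyte markers, 7 were above the floor in every library of WT31, B16F10 luc2, RET and HCmel12, with a summed level between 12030 and 30210 CPM. In D4M, 2 of 7 were above it in every library, and the sum lay between 6.54 and 59.7 CPM, so that the label of a melanocytic tumour was not borne out by these markers in D4M. Fibroblast markers summed to between 396 and 917.8 CPM in D4M and to at most 83.1 CPM elsewhere, and macrophage markers to at most 16.6 CPM in any library. Endothelial markers summed to between 25.4 and 39.1 CPM in HCmel12 and to at most 2.03 CPM elsewhere, with Cdh5 and Emcn at the floor in HCmel12, and their part in the levels of HCmel12 was not tested. One library each of D4M and HCmel12 stood apart in melanocyte markers. D4M replicate 1 held 59.7 CPM against at most 12.1 CPM in the other 4 libraries, and HCmel12 replicate 4 held 17680 CPM against at most 13230 CPM. Results are given without these libraries where this changed a call.

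The codon altered in HCmel12's mice is shown in the mouse reference, since the libraries were counted against GRCm38 and substitutions cannot be read from gene counts. The stretch of 51 bases of Cdk4 (chr10:127064281-127064331, plus strand) covers codons 16 to 32, with codon 24, the site of R24C, in capitals.
Cdk4: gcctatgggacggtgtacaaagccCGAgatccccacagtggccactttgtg

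Nras (ENSMUSG00000027852.14, GRCm38 chr3:103058285-103067914) was highest in WT31, the line from the Nras transgenic mice. WT31 held 154.1, 146, 173.1, 168.8 and 191.7 CPM in replicates 1 to 5. The other lines held between 138.1 and 149.3 CPM in D4M, 132.4 and 161.5 in HCmel12, 105.7 and 112.6 in B16F10 luc2, and 95.04 and 97.86 in RET. WT31 was therefore above B16F10 luc2 and RET without overlap and overlapped with D4M and HCmel12. The mean of 166.8 ± 17.7 CPM (SD, n = 5) in WT31 exceeded B16F10 luc2 by 0.61 on the log2 scale (SE 0.0584, adjusted p = 5.03e-10 by voom and limma with Benjamini-Hochberg adjustment over all tested genes, where a difference is called below 0.05), RET by 0.79 (adjusted p = 4.29e-12), D4M by 0.22 (adjusted p = 0.00168) and HCmel12 by 0.18 (adjusted p = 0.00877, or 0.08 when only these 2 lines were fitted). D4M and HCmel12 were both higher than B16F10 luc2 and RET, by 0.40 to 0.61, and did not differ beyond their spread (-0.04, adjusted p = 0.563), although with library size only D4M was lower (-0.22, adjusted p = 0.00165). B16F10 luc2 was 0.17 above RET (adjusted p = 0.0169), a call that was lost when libraries were scaled by size alone or when no filter was applied, and whose sign turned on log2(TPM + 1) (-0.05).

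The small excess of Nras in counts stood beside a large one per transcript length. TPM values, in which counts are divided by the length of the transcripts assigned, were 351.3, 341.1, 449.7, 420.9 and 588.9 in WT31 and between 40.63 and 66.12 in the libraries of the other 4 lines that had TPM values. The mean of WT31 was 430.4 TPM, and those of the other lines were 44.2 (B16F10 luc2), 45.8 (RET), 57.9 (HCmel12) and 59.9 (D4M, n = 4). On log2(TPM + 1), WT31 exceeded B16F10 luc2 by 3.23 (limma, adjusted p = 7.14e-18), RET by 3.18, D4M by 2.80 and HCmel12 by 2.85. The direction of Nras in WT31 is hence the same on both scales, while its size differs by more than 2 log2 units.

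The ratio of count to TPM gives the mean effective length of the Nras transcripts to which reads were assigned, once it is scaled with the genes that have a single annotated transcript. This length was 606 ± 69.9 bases (SD, n = 5, range 508.6 to 681.7) in WT31. It was 3421 ± 107 bases in B16F10 luc2, 2927 ± 68.1 in RET, 3074 ± 143 in D4M (n = 4) and 3488 ± 150 in HCmel12. The libraries of WT31 did not overlap with any other library, and the difference from B16F10 luc2, RET and HCmel12 had an exact two-sided permutation p of 0.0079 each, the smallest that 5 against 5 libraries allow, and that from D4M had an exact p of 0.016 (adjusted over 5 such tests, 0.0099 and 0.016). This measure was chosen after the values were seen. Nras has 9 annotated transcripts between 276 and 4470 bases long. Of 7596 genes with at least 200 counts in every library, 0 had a lower length in WT31 relative to the other lines than Nras, whose difference was -2.41 on the log2 scale. The lengths of Hras, Cdk4 and Trp53 differed little between lines (1043 to 1066, 959.5 to 1027 and 1580 to 1590 bases). Of the 31-base stretches of Nras transcripts, 2.84% occur in other genes, and how many reads of WT31 fall in them was not tested. Which transcripts took the reads, and whether transgene reads are among them, was not tested.

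**Figure D1:**
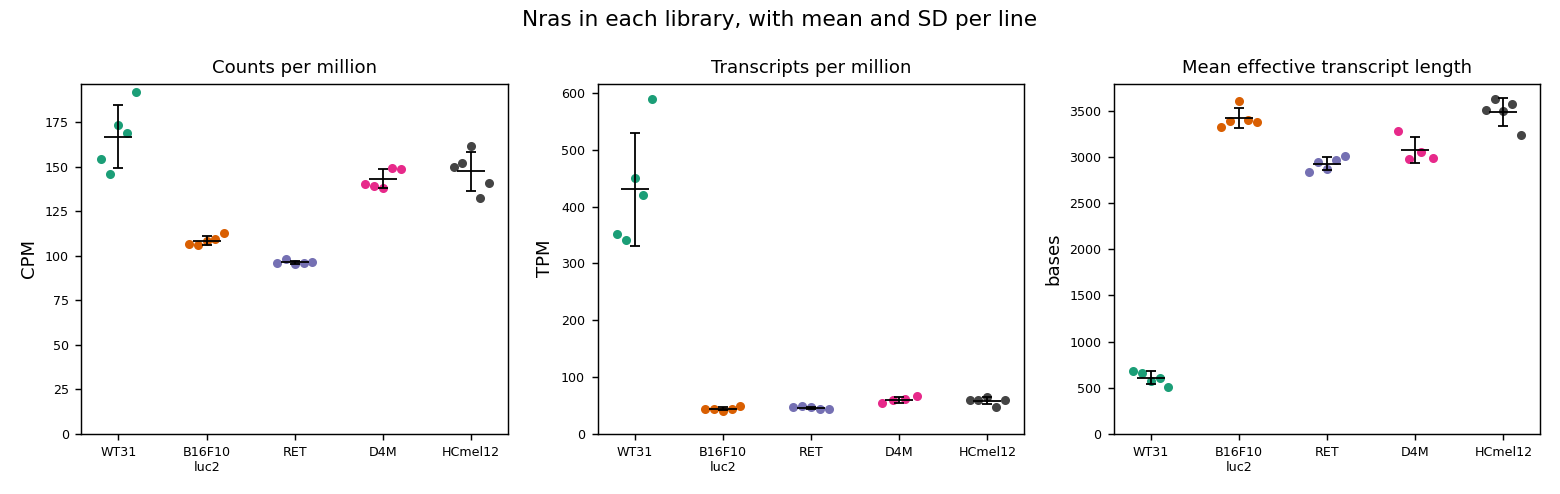
Nras in each library (points; bars show mean and SD per line) as CPM, as TPM and as mean effective transcript length in bases. WT31 is modestly higher in CPM, several times higher in TPM (430.4 against at most 59.9 in other lines) and has the shortest length, 606 bases, while the other lines lie between 2927 and 3488 bases; the TPM of D4M replicate 1 were not used.

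Hras (ENSMUSG00000025499.18, chr7:141189105-141194005, minus strand), the other GTPase of the group, fell into 2 levels that did not follow the liver groups. WT31 (55.06 to 59.17 CPM, mean 56.4 ± 1.61) and HCmel12 (45.47 to 61.25, mean 55.9 ± 6.26) were low. B16F10 luc2 (79.01 to 85.08), RET (79.93 to 90.58) and D4M (72.79 to 86.88) were high, with means of 82.0, 85.8 and 82.1 CPM, and no library of these reached down to the lower pair of lines. WT31 was 0.60 below RET on the log2 scale (SE 0.0622, adjusted p = 2.24e-09), and HCmel12 was 0.56 below D4M (adjusted p = 1.07e-08). Within each level the lines did not differ beyond their spread, with WT31 minus HCmel12 at 0.02 (95% interval -0.11 to 0.15), RET minus D4M at 0.07 (-0.06 to 0.19) and B16F10 luc2 minus RET at -0.06 (-0.19 to 0.06), while across the gap WT31 minus B16F10 luc2 was -0.54 (adjusted p = 1.74e-08). With library size only, RET was above D4M (0.27, adjusted p = 0.000245), and so was B16F10 luc2 (0.16, adjusted p = 0.0212). On log2(TPM + 1), RET was above D4M as well (0.20, adjusted p = 0.0322), while B16F10 luc2 minus D4M was not past the threshold (0.16, adjusted p = 0.0832). In TPM the means ran from 72.96 in HCmel12 to 112.7 in RET, so that in WT31 Nras stood above Hras (430.4 against 81.0 TPM) and in the other 4 lines below it.

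Braf (ENSMUSG00000002413.15, chr6:39603237-39725463, minus strand) was lowest in WT31 and in D4M, the line with the activated Braf allele. WT31 held 25.31, 28.28, 23.1, 21.16 and 25.97 CPM, and D4M 24.73, 27.24, 26.36, 27.41 and 26.55. HCmel12 had the highest libraries, at 68.46, 71.66, 71.91, 74.83 and 63.85 CPM. B16F10 luc2 (49.19 to 61.03) and RET (52.43 to 62.47) lay between. Braf was 1.404 lower on the log2 scale in D4M than in HCmel12 (SE 0.0727, adjusted p = 1.73e-15) and 1.51 lower in WT31 than in HCmel12 (adjusted p = 5.06e-16), and it was 1.00 and 1.09 lower in D4M than in B16F10 luc2 and RET (adjusted p = 2.55e-12 and 3.55e-13). WT31 minus D4M was within the spread (-0.10, 95% interval -0.27 to 0.06), and so was B16F10 luc2 minus RET (-0.09, -0.23 to 0.04). The last pair differed by -0.40 on log2(TPM + 1) (adjusted p = 0.00767), and the effective length of Braf was 6380 ± 410 bases in B16F10 luc2 and 5066 ± 617 in RET.

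Among 25 other genes of the RAS and MAPK pathway, 24 were tested, and 15 to 21 of them were called per comparison, beside 51.5% to 77.7% of all tested genes. The list was chosen with earlier results of these data known. Rras2, a RAS relative, was all but absent in HCmel12, with 1 count in 5 libraries (0.00814 CPM) against means between 21.7 CPM (B16F10 luc2) and 37.3 CPM (D4M). The ratio of D4M to HCmel12 was 4620 (exact 95% counting interval 830 to 183000). Rasa1, a GTPase-activating protein that switches RAS off, was highest in D4M, at 322.2 CPM against 49.6 to 59.5 in the other lines, with RET minus D4M at -2.44 on the log2 scale (adjusted p = 7.05e-23). Mapk3, an ERK kinase, was called in all 6 comparisons between HIM-melanoma and LM-melanoma and was lower in HIM-melanoma in each. Rras ran from 5.96 CPM in B16F10 luc2 to 25.2 in D4M, and Ksr1, a scaffold of the cascade, from 5.44 in RET to 22.8 in WT31.

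Cdkn2a (ENSMUSG00000044303.6, chr4:89274471-89294653, minus strand) differed more than the kinases and GTPases. HCmel12 held 4513, 5150, 4643, 5410 and 5425 counts. WT31, the line labelled INK4a-/-, held 70, 85, 72, 69 and 76 counts, all over the floor. D4M held 1, 0, 2, 1 and 3 counts, and every library of B16F10 luc2 and RET held 0. The groups did not overlap between HCmel12, WT31 and the other 3 lines. HCmel12 reached 202.7 ± 17.7 CPM and 407.4 TPM, and WT31 2.83 ± 0.235 CPM, so that HCmel12 was 71.2-fold higher (WT31 minus HCmel12 -6.15 on the log2 scale, SE 0.119, adjusted p = 1.19e-23). HCmel12 was at least 1670-fold higher than B16F10 luc2 and at least 1740-fold higher than RET, taking 3 counts per library as the floor for the lower line, and WT31 was at least 23.3-fold and 24.2-fold higher. With 7 counts in all in D4M, HCmel12 stood to D4M as 3260 to 1 (95% counting interval 1580 to 8120) and WT31 as 45.5 to 1 (21.9 to 114). Counts per gene do not show which exons of Cdkn2a the reads of WT31 covered.

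The count of Cdkn2a is the sum of transcripts from 2 starts. In the annotation, the longer transcript (Cdkn2a-202, 895 bases) has its first exon upstream at chr4:89294334-89294653, the exon known to begin ARF, and the shorter (Cdkn2a-201, 852 bases) at chr4:89281986-89282192, the exon known to begin p16INK4a. From the mean length, the longer transcript took 67.5 ± 5.31% of TPM in WT31 (58.5 to 72.4, from 69 to 85 counts per library) and 50.1 ± 1.52% in HCmel12 (47.5 to 51.4). The libraries did not overlap, and the exact two-sided permutation p was 0.0079, the smallest that 5 against 5 libraries allow (adjusted over the same 5 tests, 0.0099). This share was chosen after the values were seen, and for WT31 it rests on few reads. It comes from mean transcript lengths of 877.14 to 883.14 bases in WT31 and 872.43 to 874.11 in HCmel12. The calibration was checked only to within 2% of length, a margin wider than this gap. Effective lengths overlapped (682.9 to 687.2 bases in WT31, 676.1 to 685.5 in HCmel12). The shares are therefore rough, and whether their difference exceeds the error of the calibration was not tested. No 31-base stretch of Cdkn2a or of Cdkn2b occurs in another gene.

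Cdkn2b (ENSMUSG00000073802.5, chr4:89306299-89311039, minus strand), the neighbour of Cdkn2a on the same strand, was higher in WT31 than in HCmel12, the reverse of Cdkn2a. WT31 held 1001, 1477, 948, 1189 and 889 counts, a mean of 41.9 ± 9.22 CPM. HCmel12 held 226, 262, 282, 247 and 394 counts, a mean of 11.4 ± 2.73 CPM. RET and D4M held 0 counts in 5 of 5 libraries each, and B16F10 luc2 held 1 count in all. WT31 was 3.68-fold higher than HCmel12 (log2 1.88, SE 0.13, adjusted p = 1.08e-12), so that Cdkn2b was the higher of the pair in WT31 and Cdkn2a in HCmel12 (in TPM, 53.8 against 6.33 and 13.03 against 407.4). WT31 was at least 359-fold higher than RET and at least 315-fold higher than D4M, and HCmel12 at least 97.5-fold and 85.5-fold higher. By the same floor, WT31 was at least 345-fold and HCmel12 at least 93.9-fold higher than B16F10 luc2. The ratios to the 1 count of B16F10 luc2, which do not use the floor, were 5180 for WT31 (95% counting interval 930 to 205000) and 1410 for HCmel12 (252 to 55700). They do not place B16F10 luc2 below RET or D4M. In bulk RNA, fewer cells with a gene's RNA and less RNA per cell cannot be told apart.

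The promoters of the pair are shown because both genes were at the floor in B16F10 luc2, RET and D4M. Each is a RefSeq window of 300 bases around the gene's start, read along the gene (GRCm38, minus strand), with each CG in capitals. The upstream start of Cdkn2a (chr4:89294570-89294869) holds 45 CG, as many as 1.93% of 32851 promoters of this length hold. The downstream start (chr4:89282143-89282442) holds 12 (39.6%) and that of Cdkn2b (chr4:89310983-89311282) 18 (29.7%), where the median promoter holds 7. The letters TATAAA were searched on both strands and occur in 13.6% of all promoters but in none of these windows.
Cdkn2a, upstream: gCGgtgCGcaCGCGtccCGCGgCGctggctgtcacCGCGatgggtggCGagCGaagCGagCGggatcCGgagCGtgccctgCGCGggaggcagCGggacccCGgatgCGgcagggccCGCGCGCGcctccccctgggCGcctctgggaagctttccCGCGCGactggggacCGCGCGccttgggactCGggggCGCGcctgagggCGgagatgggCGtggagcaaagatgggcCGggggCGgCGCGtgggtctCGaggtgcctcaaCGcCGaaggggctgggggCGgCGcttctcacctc
Cdkn2a, downstream: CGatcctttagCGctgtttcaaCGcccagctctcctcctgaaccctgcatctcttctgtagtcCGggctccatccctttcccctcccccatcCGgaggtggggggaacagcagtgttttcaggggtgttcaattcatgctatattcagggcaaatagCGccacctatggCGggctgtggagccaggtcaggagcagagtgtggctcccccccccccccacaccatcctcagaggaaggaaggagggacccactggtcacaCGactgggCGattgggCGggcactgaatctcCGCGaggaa
Cdkn2b: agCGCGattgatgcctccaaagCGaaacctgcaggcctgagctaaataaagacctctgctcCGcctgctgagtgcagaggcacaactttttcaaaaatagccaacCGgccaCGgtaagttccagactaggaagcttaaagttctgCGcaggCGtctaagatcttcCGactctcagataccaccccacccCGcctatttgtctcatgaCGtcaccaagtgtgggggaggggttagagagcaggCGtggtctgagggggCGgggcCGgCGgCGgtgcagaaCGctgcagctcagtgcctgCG

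Around the pair, most neighbours were silent or low, and 1 of the 10 was expressed throughout. Mtap, the next gene with a measured level on one side (chr4:89137122-89181081), which salvages methionine, was expressed in all 5 lines, with means of 231 CPM (WT31), 246.3 (HCmel12), 422.7 (B16F10 luc2), 501.7 (RET) and 1009 (D4M). It was highest in D4M, where Cdkn2a and Cdkn2b were at the floor, 2.05 above HCmel12 on the log2 scale (adjusted p = 8.28e-18), and did not differ between WT31 and HCmel12 (-0.08, adjusted p = 0.406). On the other side, Dmrta1, a transcription factor gene, held 8.81 CPM in D4M, 5.34 in WT31, and 0.0576 to 0.627 in the other 3 lines, and Elavl2, a neuronal RNA-binding protein gene, held 5.93 in WT31 and at most 0.17 elsewhere. Ifna5, Ifna4, Ifna1 and Izumo3 were at 0 in all 25 libraries, and Ifne, Zfp352 and Gm12666 at most 2 counts. Copy number was not measured, and whether the locus is deleted in any line was not tested.

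**Figure D2:**
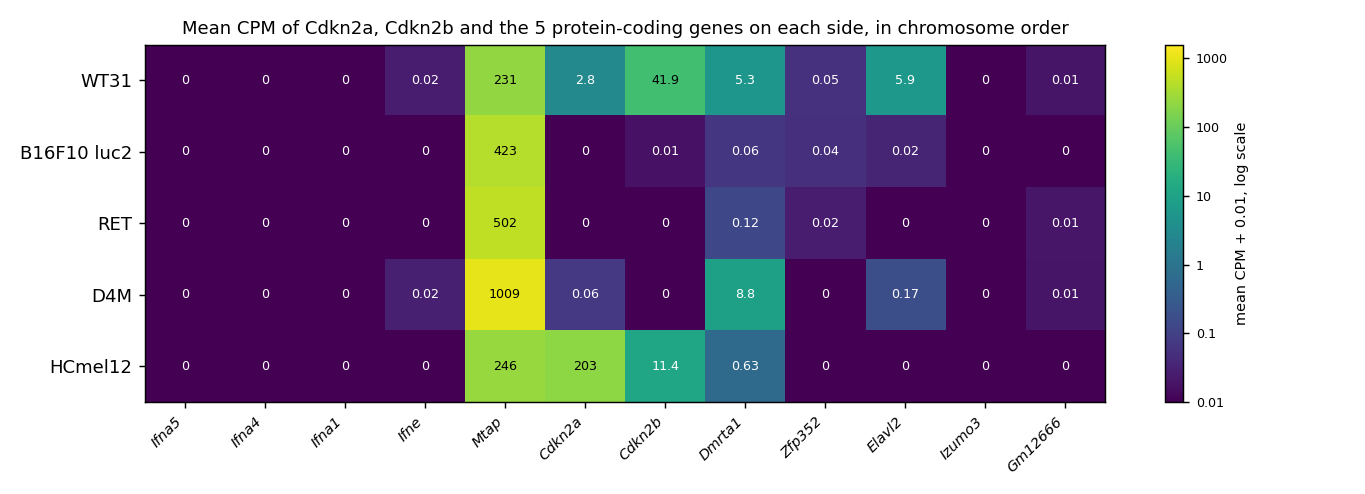
Mean CPM of Cdkn2a, Cdkn2b and the 5 protein-coding genes on each side, in the order of the chromosome, for the 5 lines (5 libraries each; colour on a log scale, value written in each cell). Cdkn2a and Cdkn2b are measurable in WT31 and HCmel12, while Mtap is expressed in all 5 lines.

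Cdk4 (ENSMUSG00000006728.12, chr10:127063534-127067920), which was altered in HCmel12, was the most abundant of the 8 genes in TPM and the most even of the 7 tested. Its mean was highest in WT31 (634.7 ± 42.8 CPM) and B16F10 luc2 (618.7 ± 9.83), followed by HCmel12 (591.4 ± 9.29), D4M (570.3 ± 14.5) and RET (559.5 ± 33.6), or 723.3 to 973.2 TPM. Libraries ran from 518 in RET to 688 in WT31, and most lines overlapped. The largest difference was 0.18 on the log2 scale between WT31 and RET (SE 0.045, adjusted p = 0.000798), and 99.6% of tested genes had a larger range over the 5 lines. B16F10 luc2 was above RET by 0.15 without overlap (adjusted p = 0.00791, or 0.0525 with library size only). WT31 and B16F10 luc2 were also above D4M, by 0.15 and 0.12 (adjusted p = 0.00361 and 0.0201), the latter a call that did not hold with DESeq2's size factors (adjusted p = 0.117) or when any of B16F10 luc2 replicates 2 and 3 or D4M replicates 2 and 5 was left out (0.059 to 0.0879). HCmel12 differed from no other line in Cdk4 at the threshold, but this depended on the scale. On log2(TPM + 1) it was below WT31 (WT31 minus HCmel12 0.2059, adjusted p = 0.00207) and above RET and D4M (-0.1506 and -0.2172 against it, adjusted p = 0.0203 and 0.00219). It was also called against D4M and WT31 with library size only, against RET with DESeq2's size factors, and against WT31 when WT31 replicate 1 or 2 or RET replicate 3 or 4 was left out (adjusted p from 0.019 to 0.0496). Of the 31-base stretches of Cdk4, 19.5% occur in other genes, mainly its neighbour Tspan31 (18.1%).

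Of 23 partners, inhibitors and other genes of the CDK4 and retinoblastoma axis, 23 were tested and 15 to 22 were called per comparison, beside 51.5% to 77.7% of all tested genes. Cdk6, a close relative of Cdk4, was low in HCmel12, at 1.79 CPM against 30.0 to 85.6 in the other lines, and was 4.07 to 5.57 lower on the log2 scale (adjusted p from 3.26e-17 to 3.36e-14). Ccnd2, a D-type cyclin, was likewise lowest in HCmel12 (43.5 CPM) and highest in RET (877 CPM). Ccnd1, the other prominent D-type cyclin, chosen after its values were seen, was high in WT31 (1744 CPM) and D4M (2381) against 240 to 424 in the other 3 lines; 22.3% of its 31-base stretches occur in another gene. Cdk2 was lowest in D4M (48.9 CPM) and highest in B16F10 luc2 (654.1), and Cdkn1c, another inhibitor, was highest in B16F10 luc2 (3.46 CPM) and lowest in RET (0.0306 CPM). Rbl2, a relative of the retinoblastoma protein, had one sign in all 6 comparisons between HIM-melanoma and LM-melanoma and was higher in HIM-melanoma.

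**Figure D3:**
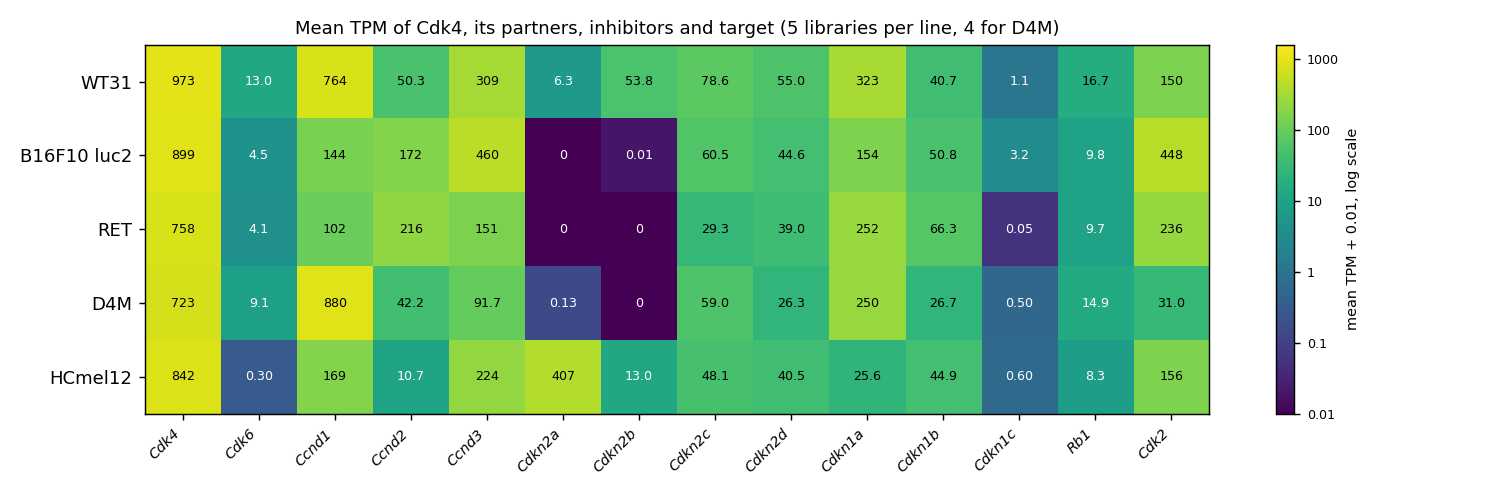
Mean TPM of Cdk4, its partners, inhibitors and target in the 5 lines (5 libraries each, 4 for D4M; colour on a log scale, value written in each cell). Cdk4 stays between 723.3 and 973.2 TPM, while Cdk6, Ccnd1, Ccnd2 and Cdkn2a differ by large factors between lines.

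Trp53 (ENSMUSG00000059552.13, chr11:69580359-69591873) was highest in the LM-melanoma lines in CPM, while in TPM WT31 (mean 199.1) lay with D4M (200.9) and HCmel12 (198). D4M held 258.3, 237.6, 270.5, 244.2 and 241 CPM, and HCmel12 235.9, 246, 246.8, 183.8 and 234.1. WT31 held 185.8, 216.5, 216.3, 224.9 and 184.6, B16F10 luc2 186.8, 181.6, 200.8, 206.9 and 204.1, and RET 193.6, 192.6, 184.8, 190.2 and 189.8. D4M did not overlap with WT31, B16F10 luc2 or RET, while HCmel12 overlapped with WT31, B16F10 luc2 and RET through replicate 4 alone. Trp53 was lower than in D4M by 0.29 (WT31), 0.35 (B16F10 luc2) and 0.39 (RET) on the log2 scale (adjusted p = 0.000596, 5.56e-05 and 1.28e-05), and lower than in HCmel12 by 0.22 and 0.26 in B16F10 luc2 and RET (adjusted p = 0.00692 and 0.00176). In WT31 it was 0.15 lower than in HCmel12 (adjusted p = 0.0509), which was past the threshold with all libraries kept under edgeR's quasi-likelihood test (adjusted p = 0.0475), DESeq2's Wald test (0.0175), DESeq2's size factors (0.0239) and a minimum of 10 counts in every library (0.0381). Without HCmel12 replicate 4, one of the libraries that stood apart, this difference was -0.23 (adjusted p = 0.00078) and all 6 differences between the liver groups had one sign past the threshold. When libraries were scaled by size alone, the median of all genes for WT31 minus D4M was 0.22, and Trp53 differed by -0.06 between them (adjusted p = 0.429). On log2(TPM + 1) this difference was -0.01 (adjusted p = 0.893). That of B16F10 luc2 from HCmel12 was then -0.18 (adjusted p = 0.0533) and that of WT31 from HCmel12 was 0.02 (adjusted p = 0.864). On that scale WT31 was above B16F10 luc2 by 0.20 (adjusted p = 0.0325) and above RET by 0.25 (adjusted p = 0.0107), calls not made on counts. Of the 31-base stretches of Trp53, 8.79% occur in its pseudogene Trp53-ps.

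Among 20 genes around p53, 18 were tested and 11 to 16 were called per comparison, which is 61.1% to 88.9% beside 51.5% to 77.7% of all tested genes. Mdm2, which encodes the ligase that degrades p53 and is itself a p53 target, was highest in D4M (224.1 CPM) and lowest in HCmel12 (81.0 CPM), 1.45 apart on the log2 scale (adjusted p = 1.14e-13). Cdkn1a, the p53 target that encodes p21, chosen after its values were seen, was 32.3 CPM in HCmel12 and 187.5 to 360 in the other lines, and 3.42 lower in HCmel12 than in D4M (adjusted p = 3.31e-16). Atr, a kinase of the DNA damage response, was lower in HIM-melanoma in all 6 comparisons (13.79 to 21.98 CPM against 33.2 in D4M and 28.2 in HCmel12), as were Trp53bp1 and Ube4b. Hipk2, a kinase that acts on p53, was highest in RET (74.8 CPM) and lowest in WT31 (16.4). Npm1, a nucleolar partner of ARF, was lowest in WT31 (842.7 CPM) and lay between 1389 and 1692 in the other lines.

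Ret (ENSMUSG00000030110.13, chr6:118151745-118197718, minus strand), the receptor of the GDNF family of ligands, was at or under 3 counts in each of the 25 libraries. The RET line held 1, 1, 1, 3 and 0 counts, WT31 2, 0, 2, 0 and 1, and D4M 3, 0, 0, 0 and 3, while B16F10 luc2 and HCmel12 held 0 in every library. No fold is given, since all lines were at the floor, and the RET line was not above D4M. The transgene of the RET line is human, and the reference was that of the mouse, so that these counts are no measure of the transgene; how far its reads could be assigned to mouse Ret was not tested.

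Ret acts with co-receptors of the GFRA family, and 8 of 10 genes of ligands and co-receptors were tested, of which 3 to 8 were called per comparison, beside 51.5% to 77.7% of all tested genes. Gfra1, the co-receptor of GDNF, was 364.6 CPM in WT31 and 238.4 in D4M, against 0.780 in B16F10 luc2, 3.35 in RET and 4.36 in HCmel12, and was 6.77 higher on the log2 scale in WT31 than in RET (adjusted p = 2.56e-21). Gfra2 was highest in D4M (9.50 CPM, 0.498 in WT31), and so was Artn, which encodes the ligand artemin (16.2 CPM). Gdf15, which encodes a ligand that signals through RET with another co-receptor, was 0.162 CPM in B16F10 luc2 and 8.85 to 35.9 in the other lines. The endogenous genes of the promoters used in the transgenes, Mt1 and Tyr, were expressed unequally. Mt1, whose promoter drives the RET transgene, was highest in RET (573 CPM) and lowest in WT31 (200.9). Mt2, another metallothionein gene whose promoter is not named for any line, was 353.2 CPM in RET and 354.8 in HCmel12. Of the stretches of Mt2, 58.1% occur in other genes. Tyr, whose promoter drove the WT31 transgene and the D4M Cre, was 3982 CPM in WT31 and 0.205 in D4M, where 1 library held most counts.

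Of the 10 comparisons of lines, the 7 tested members were called in between 2 and 6 of 7. Each count stands beside the share of all tested genes that were called. In the 6 comparisons between the liver groups, 6 of 7 were called for WT31 against D4M (76.1% of all genes), 4 for WT31 against HCmel12 (70.4%), 5 for B16F10 luc2 against D4M (77.7%), 6 for B16F10 luc2 against HCmel12 (69.1%), 4 for RET against D4M (77.1%) and 6 for RET against HCmel12 (67.2%). For the pairs within groups, 5 were called for WT31 against B16F10 luc2 (72.8%), 6 for WT31 against RET (73.2%), 2 for B16F10 luc2 against RET (51.5%) and 4 for D4M against HCmel12 (72.5%). Among the calls against D4M are Cdkn2a in B16F10 luc2 and RET, where both lines were at the floor and no direction is read. Read against these shares, the counts show nothing particular to the members. The count of members called in all 10 comparisons was 0, where 7.19% of genes were, and 0 had one sign past the threshold in all 6 comparisons between the groups, where 12.9% of genes did. Trp53 had 5 of 6 comparisons lower in HIM-melanoma. It had 6 of 6 under the settings named above that call WT31 against HCmel12, so that the latter count is then 1. Fewer were called under other settings. With library size only, WT31 against D4M was lost (adjusted p = 0.429). On log2(TPM + 1), WT31 against D4M (adjusted p = 0.893) and B16F10 luc2 against HCmel12 (adjusted p = 0.0533) were lost. The same comparisons were lost with a pseudocount of 0.1 (adjusted p = 0.891 and 0.053). On log2(TPM + 1) with no filter they were lost again, and B16F10 luc2 against D4M was lost too (adjusted p = 0.057). Over the 5 line means, the range was 0.79 for Nras, 0.62 for Hras, 1.51 for Braf, 0.18 for Cdk4 and 0.39 for Trp53 on the log2 scale, where the median gene had 1.405. Cdkn2a and Cdkn2b had far wider fitted ranges, 13.34 and 11.05, which 0.282% and 1.55% of tested genes exceeded; these sizes depend on the prior count, since the lowest lines were at the floor.

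**Figure D4:**
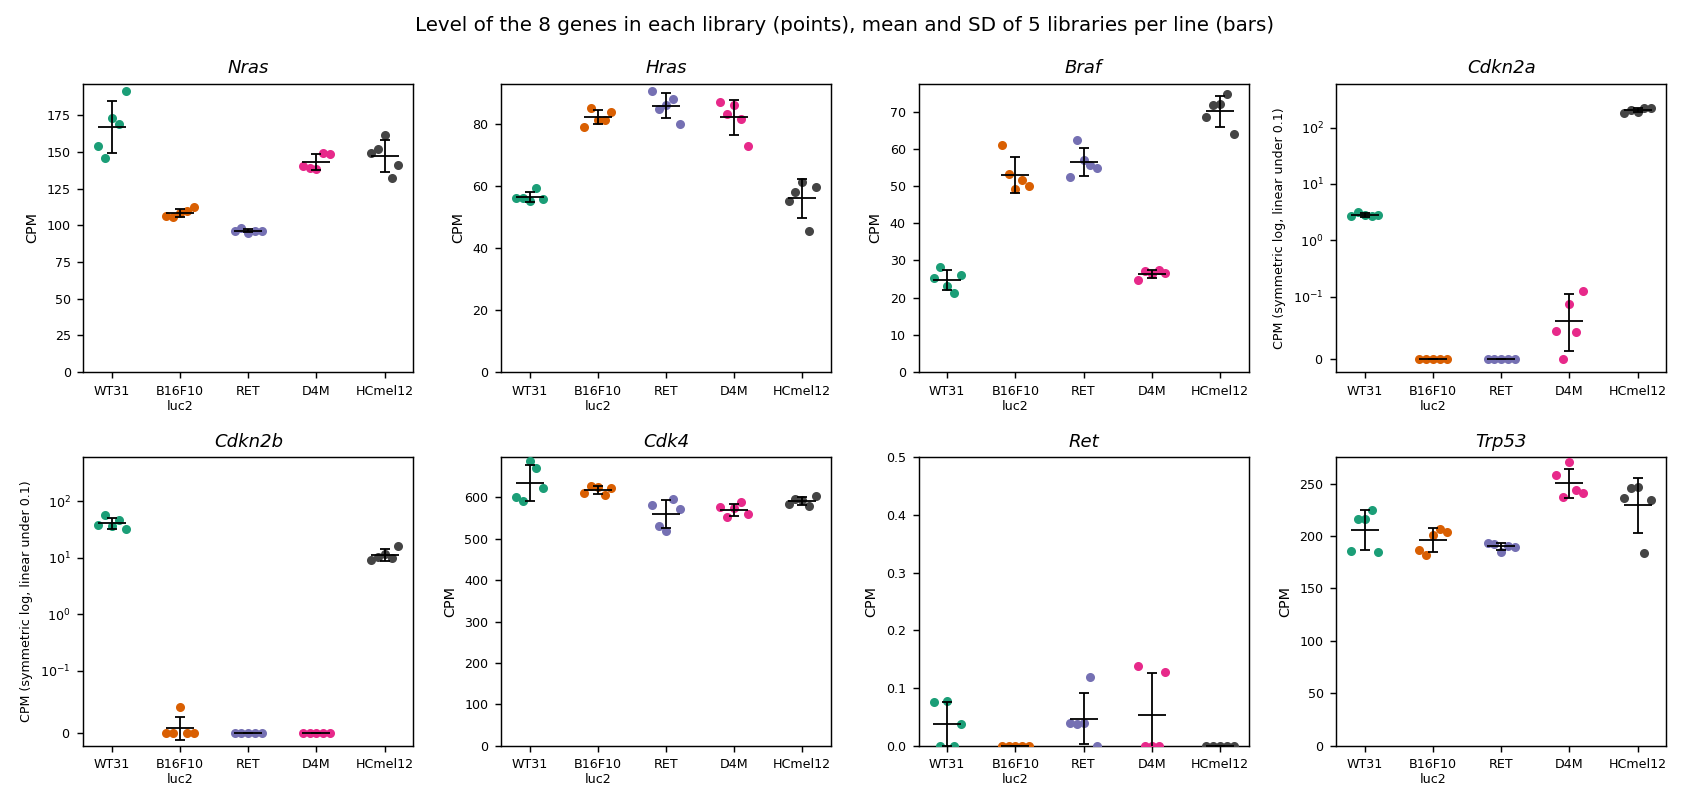
Level of the 8 genes in CPM in each library (points), with mean and SD of 5 libraries per line (bars); the axes of Cdkn2a and Cdkn2b are logarithmic above 0.1 CPM and linear below. Cdkn2a and Cdkn2b are at or near 0 in B16F10 luc2, RET and D4M, Ret is at the floor in all lines, and Cdk4 is nearly even.

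**Figure D5:**
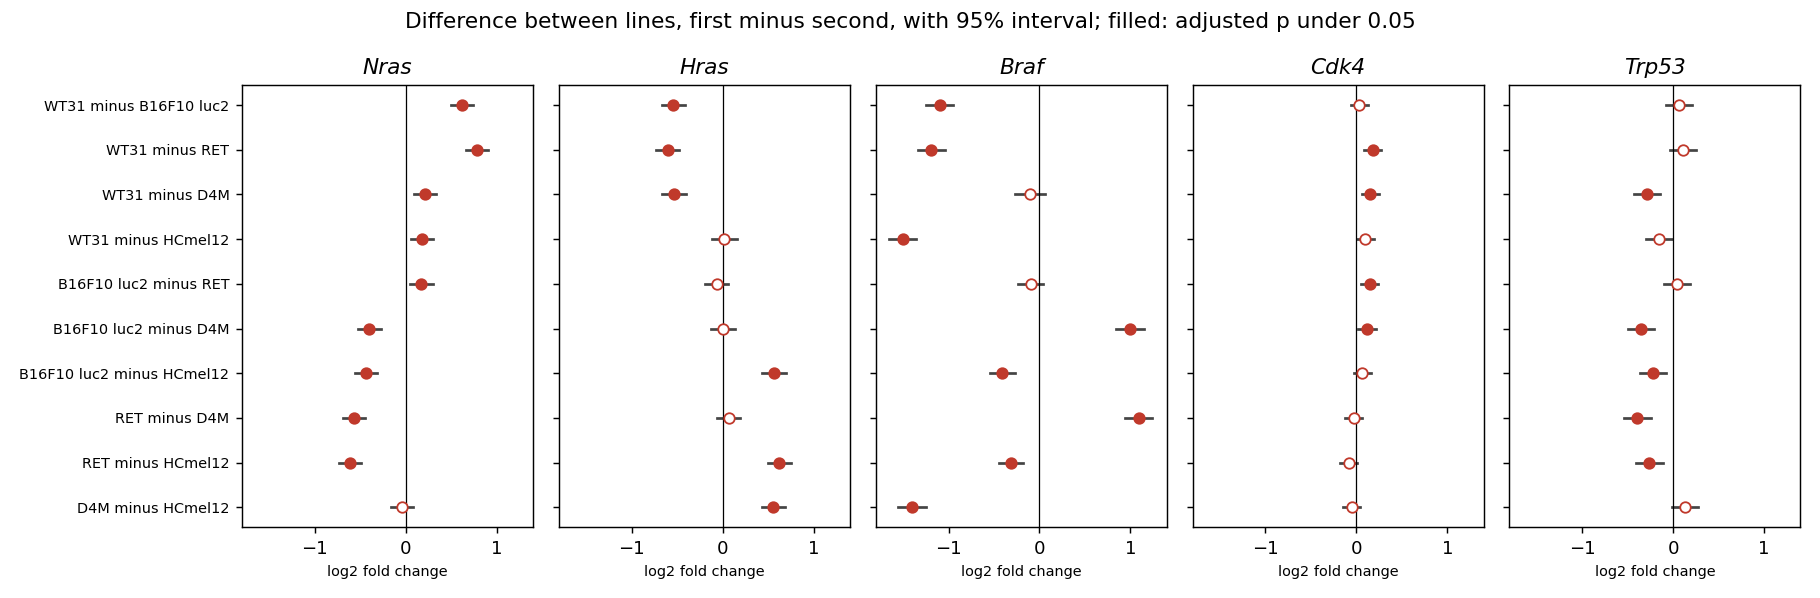
Log2 fold change of Nras, Hras, Braf, Cdk4 and Trp53 for the 10 comparisons of lines (first minus second), with 95% intervals; filled points have an adjusted p under 0.05 (limma). Braf has the largest differences of these genes, up to 1.51 between WT31 and HCmel12, and Cdk4 the smallest.

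Of 23 other genes altered in these lines or known from melanoma, 16 to 21 were called per comparison, beside 51.5% to 77.7% of all tested genes. Hgf, the growth factor overexpressed in HCmel12's mice, was 94.8 CPM in HCmel12, 2.63 in D4M and at most 1 count in all libraries of each other line. Kit, a receptor of melanocytes, ran from 530.7 CPM in WT31 and 119.9 in HCmel12 to 6.89 in B16F10 luc2, 0.739 in RET and 2 counts in all of D4M. Mitf, the master regulator of melanocytes, was 415.6 to 692.3 CPM in WT31, B16F10 luc2, RET and HCmel12 and 6.38 CPM in D4M, 6.64 lower on the log2 scale than in HCmel12 (adjusted p = 2.97e-19). These values stand beside the members in D4M, and the part of cell identity in the level of Braf, Cdkn2a or Trp53 was not tested.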

How the data were processed

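RNA-seq was analysed for 25 libraries, 5 of each of 5 lines. The authors trimmed reads with trim_galore (0.6.4) and assigned them to GRCm38.p6 with kallisto, which divides a read that matches several transcripts, and deposited estimated counts per gene and, for 24 libraries used here, TPM. The TPM of D4M replicate 1 were not used here. Between 24.5% and 26.6% of the deposited count values were not whole. The labels describe biological replicates.

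Counts were filtered (edgeR 4.0.16, filterByExpr), TMM-scaled and tested with voom and limma (3.58.1, R 4.3.3), with 1 mean per line over all 25 libraries and Benjamini-Hochberg adjustment over 15247 genes at 0.05. The members and lists were chosen with earlier results of these data known. The text names all members, the genes of each list with the widest range, those altered in the lines, the genes most like each member, and the neighbours of Cdkn2a. The ratio of count to TPM was calibrated on genes with a single transcript. The procedure was tested on simulated data. Alternatives, including DESeq2 (1.42.0) and edgeR's quasi-likelihood test, are given at the end. Protein sequences were not used here, and some genes and sequences are not reported here.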

Additional observations from a re-analysis of the deposited data

Results flagged for a closer look

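In groups of 5 libraries, 3 of 29 combinations of gene and line held a library that stood apart from the other 4, where chance gives about 1 in 20. Hras in WT31 replicate 4 was the highest at 59.17 CPM, against 55.06 to 55.95 in the other 4. Cdkn2a in WT31 replicate 2 was the highest at 3.229 CPM, against 2.654 to 2.808, which rests on 85 counts. Trp53 in HCmel12 replicate 4 was the lowest at 183.8 CPM, against 234.1 to 246.8, and this is the library that also stood apart in melanocyte markers.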

How the results depend on the processing

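Of 64 differences of the members between lines with at least 1 line over the floor, 64 kept their call with the replicate number as a block, as did the 10 counts of members called, and the numbers do not pair the libraries (correlation of same-numbered libraries between -0.0909 and 0.104, 6 of 25 closest to their own number). The counts of members called for B16F10 luc2 against RET fell from 2 to 0 with library size only and to 1 with no filter, and the other counts stayed within 1.5 times. With library size only, the median of all genes for WT31 against D4M was 0.216, where it was -0.00947 in the main fit. The share of calls that were higher for this pair went from 49.3% to 62.4%. Cdk4 for RET against D4M reversed from -0.03 to 0.1735, now past the threshold. Nras for B16F10 luc2 against RET reversed to -0.05 on log2(TPM + 1), with or without a filter (-0.04957), and to -0.05059 with a pseudocount of 0.1. Leaving out each library in turn changed 13 of 1600 differences of single members, 9 gaining and 4 losing the call, all in Cdk4 and Trp53. Nras for WT31 against HCmel12 lost its call with only these 2 lines fitted (0.16, adjusted p = 0.08), and Braf for RET against HCmel12 on log2(TPM + 1) (-0.11, adjusted p = 0.46). A difference past the threshold in neither setting was taken as unchanged whatever its sign. With at least 10 counts in every library, Cdkn2a and Cdkn2b drop out, so that no count of members was computed. The causes were not tested. At this depth Ret, and Cdkn2a and Cdkn2b in the lines at the floor, can only be placed at or under the floor. Whether depth sets this limit was not tested.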

Other observations

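The genes whose log2 CPM over the 25 libraries was most like that of each member are given as a description, since the libraries of a line share its genome and the correlation is mainly one over 5 lines. Braf was most like Wasl (r = 0.986, chr6:24613805-24665009) and Zc3hc1 (r = 0.9754, chr6:30366380-30391028), both on its own chromosome 6. Of the 100 genes most like Braf, 25 lie on chromosome 6, which holds 5.13% of tested genes. For the other members, between 3 and 9 of 100 lie on the member's chromosome, where 5% to 7.66% of tested genes do. Nras was most like Pura (0.961) and Prkd3 (0.960), Hras like Kctd17 (0.961) and Tbx15 (0.958), and Cdkn2a like Gm30835 (0.982) and Sall2 (0.981). Cdkn2b was most like Dpysl5 (0.987) and Gm43366 (0.985), Trp53 like Rrp9 (0.912) and Ube2j2 (0.895), and Cdk4, which varied little, like Gm45453 (0.835) and Anapc10 (0.773).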
